A study of Homo sapiens with 32 samples.

Results

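The genes described here are 59 protein-coding genes spread along the long arm of chromosome 13 (13q), from CDK8 to LAMP1, of 35587 gene symbols measured. They were listed because levels along the arm were lower in U2OS cells with both p53 alleles changed to A347D than in the other cells, so the members were chosen by the levels in those cells, which are given below as a description, with no test. U2OS is a human osteosarcoma line with wild-type p53, and all groups share this background. The 8 groups, each with 4 libraries of poly-A RNA, were p53 A347D/A347D cells (HOM), cells with 1 wild-type and 1 A347D allele (HET), cells without p53 (KO) and cells with the wild-type gene (WT), each after 24 h with 20 µM etoposide or with DMSO. Genotypes were made with CRISPR-Cas9, and replicates are separate plates of cells. The number of edited lines behind each genotype was not given in the sources used here, so genotype and line cannot be told apart, and every p-value below measures the spread between plates.

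Genes that neighbour each other on a chromosome arm mostly have unrelated functions and their own promoters, and what they share is their place. Messenger RNA levels of many genes follow the number of gene copies in a cell, while others are buffered or set by the factors that bind the promoter. RB1, the retinoblastoma gene, lies on 13q, and losses of this region are known from osteosarcoma and other tumours. p53 is a transcription factor that acts as a tetramer, and A347D lies in its tetramerization domain. Etoposide holds topoisomerase II on cut DNA, and the DNA breaks activate p53.

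Recovered totals were 18.25 to 24.19 M counts in 31 of the 32 libraries, and 8.05 M in HET with etoposide, replicate 2. Replicates 2 to 4 of HOM with DMSO stood apart. Their 13 mitochondrial genes held 20.7% to 21.9% of the normalized counts, against 12.5% in replicate 1 of that group and 7.87% to 15.2% in all other libraries. The etoposide groups are therefore the main comparison, and replicate 1 is given separately for DMSO. The 7 mesenchymal and bone markers summed to 69322 to 83524 normalized counts in HOM with etoposide, 111738 to 128688 in HET, 88976 to 100829 in KO and 132994 to 144584 in WT. The 6 epithelial markers summed to 8887 to 10917, 10747 to 11753, 16536 to 20659 and 15412 to 18610 in the same order of groups. The 6 blood markers summed to at most 51.6 in an etoposide library, with HBB at 0 in KO and WT. The part of these marker levels in the results below was not tested.

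Levels in HOM with etoposide changed along the arm in a step. The 9 members before position 31.5 Mb, from CDK8 to HSPH1, had no common direction: 6 differed from each of the other genotypes by at most 0.33 log2 units, while HMGB1 and KATNAL1 were 1.24 and 0.72 above WT and UBL3 was at -0.70 against HET. The 48 members from PDS5B to IRS2 were mostly near 1 log2 unit lower, and the 2 members past 112 Mb, CUL4A and LAMP1, were lower by less. These 3 blocks (proximal, middle and distal end) were drawn after the values were seen. Over the middle block, the median difference in log2 of the normalized count plus 1 was -1.28 for HOM against HET, -0.97 against KO and -0.92 against WT. The proximal block had medians of -0.13, -0.18 and 0.08 for the same comparisons, and the 16824 tested genes had -0.02, 0.01 and -0.01. Against KO, 48 of the 48 middle members were below 0, between -1.56 and -0.09, and the proximal members lay between -0.33 and 0.29. Against WT, the middle members EXOSC8 and EFNB2 were not lower, at 0.36 and 0.01. The name under which the genes were listed, lower in the homozygous line, therefore describes most middle members and the distal members, and not the proximal 9 as a group.

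**Figure D1:**
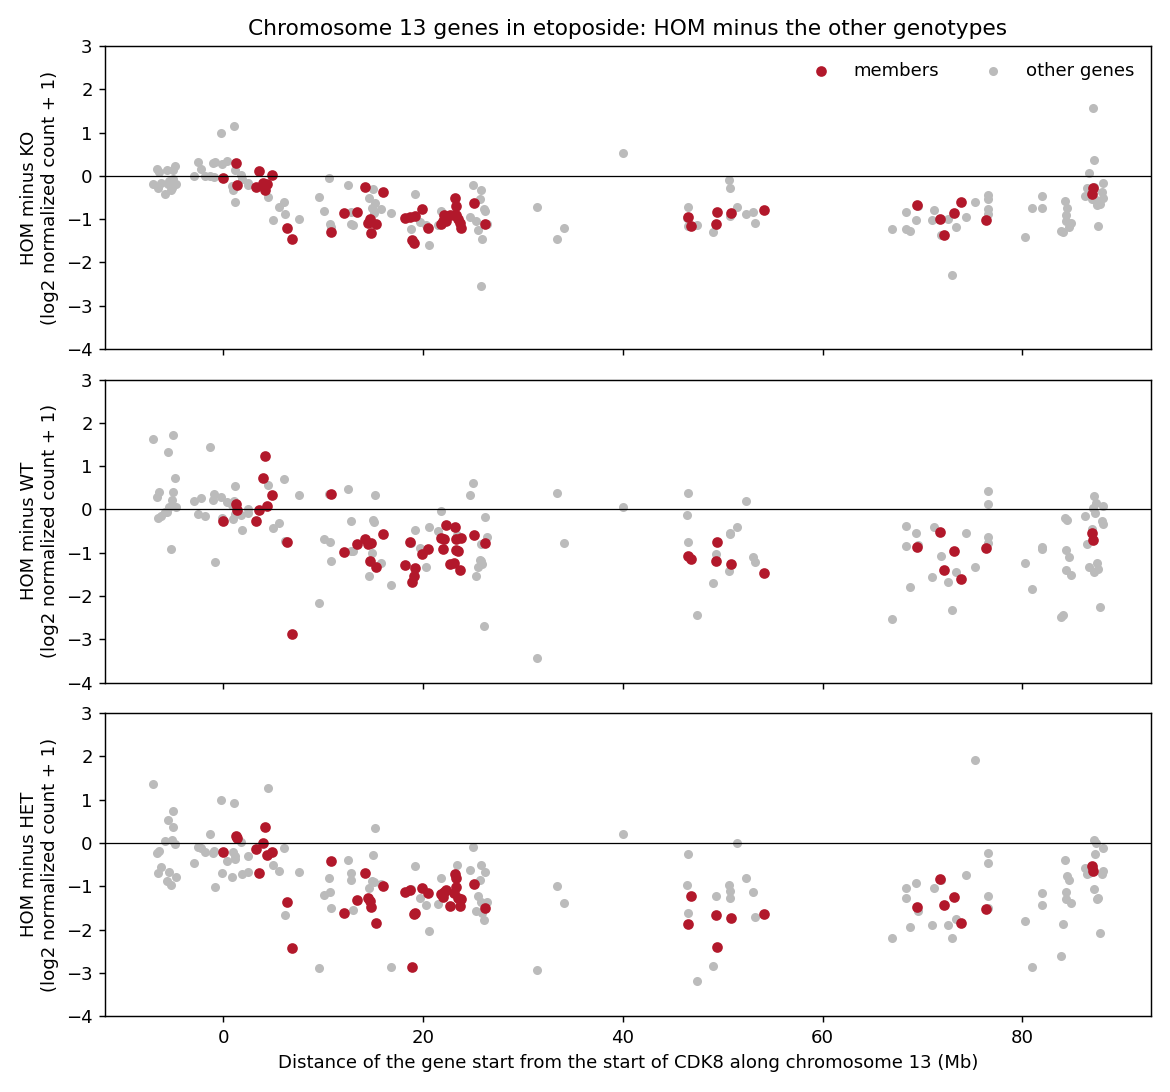
Difference in log2(normalized count + 1) between HOM and KO, WT or HET with etoposide (1 panel each, y axis) for 193 protein-coding genes of chromosome 13, 55 of them members, with a mean of at least 50 normalized counts, against the distance of the gene from the start of CDK8 in Mb (x axis); coloured points are members and grey points the other genes. The first points scatter around 0, and most points past about 5 Mb lie near -1.

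At most middle members, the HOM libraries lay below those of the other genotypes. All 4 HOM etoposide libraries were below the other 12 etoposide libraries at 44 of the 59 members, where 6.84% of all tested genes met this. By block these were 0 of 9 proximal, 42 of 48 middle and 2 of 2 distal members. No member had all 4 HOM etoposide libraries above the other 12 (background 6.81%). The 4 HOM libraries were below the 4 HET libraries at 50 of 59 members (background 29.2%), below the 4 KO libraries at 46 (background 18.0%) and below the 4 WT libraries at 46 (background 28.0%). As the rule used these contrasts, the counts describe the members. Among the 48 middle members, EXOSC8, AKAP11, LPAR6, RCBTB2, EFNB2 and IRS2 did not have all 4 HOM libraries below the other 12. IRS2 and LPAR6 were too low to be tested, and 57 of the 59 members reached 10 normalized counts in 4 or more libraries, the filter used.

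Genes of chromosome 13 that are not on the list followed the same course. The whole arm had been seen to be lower when the members were listed, so these values are a description and not separate support. Of the other tested protein-coding genes, the 117 in the middle block had a median difference of -0.86 for HOM against KO with etoposide, with 112 of 117 below 0. The 46 proximal ones had a median of 0.06, and the 18 at the distal end had -0.49, with 15 of 18 below 0. Over all 16824 tested genes the median was 0.01, and the share of them below 0 is not given. All 4 HOM libraries were below the other 12 at 62 of these 117 middle genes, 2 of the 46 proximal genes and 8 of the 18 distal genes (background 6.84%). In windows of 10 Mb, the median for HOM against KO was 0.12 between 20 and 30 Mb (44 tested genes), -0.77 between 30 and 40 Mb (32 genes), -0.92 between 40 and 50 Mb (47 genes) and -0.54 past 110 Mb (28 genes). In the same order, these windows had 0.12, -0.31, -0.75 and -0.66 against WT, and -0.15, -0.74, -1.15 and -0.71 against HET. Among the members, the first change lay between HSPH1, which starts at 31.1 Mb, and PDS5B, which starts at 32.6 Mb. USPL1 and HSPH1 differed from KO by -0.19 and 0.02, and B3GLCT, FRY and the member PDS5B, further along the arm, by -1.03, -0.72 and -1.22. Toward the end of the arm, ANKRD10 and ARHGEF7 differed by -1.17 and -1.10, and TUBGCP3, ATP11A, CUL4A and LAMP1 by -0.47, -0.27, -0.42 and -0.28, while GAS6, still nearer the end of the arm, was at -1.17. The block limits of 31.5 and 112 Mb need not coincide with these changes at every gene that is not a member.

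Set beside the other chromosomes, chromosome 13 had the lowest median. Over its 260 tested genes, 57 of them members, the median difference with etoposide was -0.95 for HOM against HET, -0.68 against KO and -0.57 against WT. The next lowest medians were -0.34 for chromosome 18 against HET, and -0.13 against KO and -0.25 against WT for chromosome 16. In bulk RNA, fewer cells with these transcripts and less RNA of them per cell cannot be told apart, and gene copy number was not measured in these libraries.

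**Figure D2:**
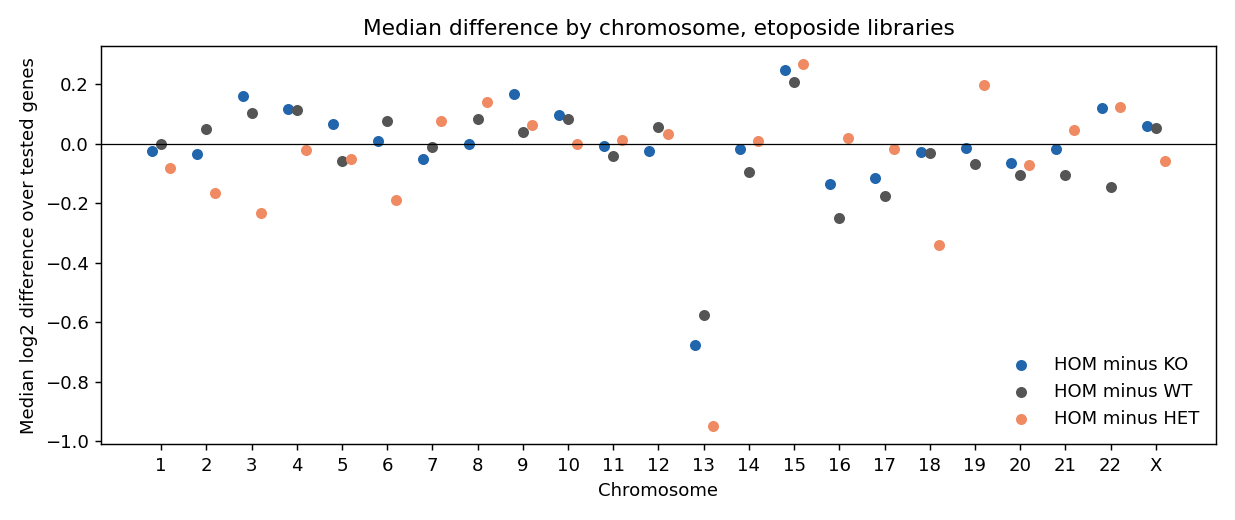
Median difference in log2(normalized count + 1) over the tested genes of each chromosome (y axis, chromosomes on the x axis) for HOM against KO, WT and HET with etoposide. Chromosome 13 lies at -0.57 to -0.95, below every other chromosome in each of the 3 comparisons.

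The 4 members with the lowest levels in HOM relative to the mean of the other genotypes with etoposide were STARD13, NBEA, GTF2F2 and TPT1. STARD13 (chr13:33103135-33350630, minus strand), a GTPase-activating protein, had 45.1, 57.6, 46.0 and 51.0 normalized counts in HOM with etoposide, and 257, 291, 260.5 and 281 in HET. Values in KO were 105, 167, 136 and 159, against 386, 406, 367 and 339 in WT. All HOM values were below all others, KO was also below HET and WT, and the differences were -2.43 against HET, -1.47 against KO and -2.89 against WT. NBEA (chr13:34942287-35673022, plus strand), the gene of neurobeachin, a large protein of membrane traffic, had 6.33, 5.68, 9.97 and 6.80 normalized counts in HOM with etoposide, and 58.4, 57.4, 54.4 and 56.7 in HET. KO had 24.0, 18.2, 21.9 and 14.3, against 25.2, 43.1, 43.5 and 33.7 in WT. HOM was lowest and HET highest, with differences of -2.84 against HET, -1.33 against KO and -2.18 against WT. In these 4 HOM libraries 3 counts equal 2.30 to 2.55 normalized counts, so the HOM values of NBEA rest on few counts.

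GTF2F2 (chr13:45120515-45284909, plus strand), a subunit of the general transcription factor TFIIF, had 57.8, 63.3, 59.8 and 41.7 normalized counts in HOM with etoposide, and 483, 435, 357 and 369 in HET. In KO they were 122, 165, 166 and 174, against 169.6, 187, 186 and 167 in WT. HOM was below every other library and HET above every other, and KO and WT overlapped. Its differences were -2.87 against HET, -1.48 against KO and -1.67 against WT. TPT1 (chr13:45333471-45341370, minus strand), the gene of the abundant translationally controlled tumour protein, had 6229, 6871, 5612 and 4913 normalized counts in HOM with etoposide, and 20234, 19942, 17243 and 16298 in HET. The KO libraries had 19436, 16524, 17548 and 15742, against 17718, 18435, 16676 and 15586 in WT. The 3 other genotypes overlapped, and HOM was below them all, with differences of -1.65 against HET, -1.56 against KO and -1.54 against WT. The 14 TPT1 pseudogenes in the table summed to 6.53 normalized counts or less in each group mean.

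The 4 members with the smallest differences were POLR1D, HSPH1 and USPL1 of the proximal block and LPAR6 of the middle block, and the proximal CDK8 came next. CDK8 (chr13:26254104-26405238, plus strand), the kinase of the Mediator complex, had 258, 265, 239 and 229 normalized counts in HOM with etoposide, and 277, 275, 275 and 311 in HET. Values in KO were 290.4, 254, 248 and 229, against 295, 319, 302 and 280.5 in WT. HOM overlapped KO and lay below HET and WT, with differences of -0.20 against HET, -0.04 against KO and -0.27 against WT. POLR1D (chr13:27620742-27744237, plus strand), a subunit shared by RNA polymerases I and III, had 996, 1083, 996 and 949 normalized counts in HOM with etoposide, and 937, 969.8, 939.7 and 859 in HET. KO had 1248, 1182, 1187 and 1052, against 987, 977, 1023 and 1097 in WT. HOM overlapped all 3 other genotypes, with differences of 0.12 against HET, -0.21 against KO and -0.02 against WT.

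LPAR6 (chr13:48389567-48444704, minus strand), a receptor for lysophosphatidic acid that overlaps RB1 on the opposite strand, had 7.91, 4.87, 2.30 and 7.65 normalized counts in HOM with etoposide, and 11.9, 6.15, 4.06 and 5.51 in HET. In KO they were 6.45, 6.95, 8.12 and 2.52, against 4.20, 6.02, 8.71 and 4.82 in WT. The 4 genotypes overlapped at levels of a few counts, too low for a test. USPL1 (chr13:30617693-30660770, plus strand), a SUMO isopeptidase, had 268, 309, 268 and 238 normalized counts in HOM with etoposide, and 378, 293, 307 and 339.5 in HET. The KO libraries had 350.3, 279.6, 283 and 327, against 247, 294, 248 and 236 in WT. HOM overlapped all 3 other genotypes. HSPH1 (chr13:31134974-31162388, minus strand), a cytosolic chaperone of the HSP110 family and the last member before the step, had 2533, 2472, 2371 and 1878 normalized counts in HOM with etoposide, and 2824, 2684, 2549.7 and 2516 in HET. Values in KO were 2343, 2097, 2389 and 2267, against 1764, 2169.5, 1714 and 1688 in WT. HOM again overlapped the other groups, with differences of -0.20 against HET, 0.02 against KO and 0.33 against WT.

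**Figure D3:**
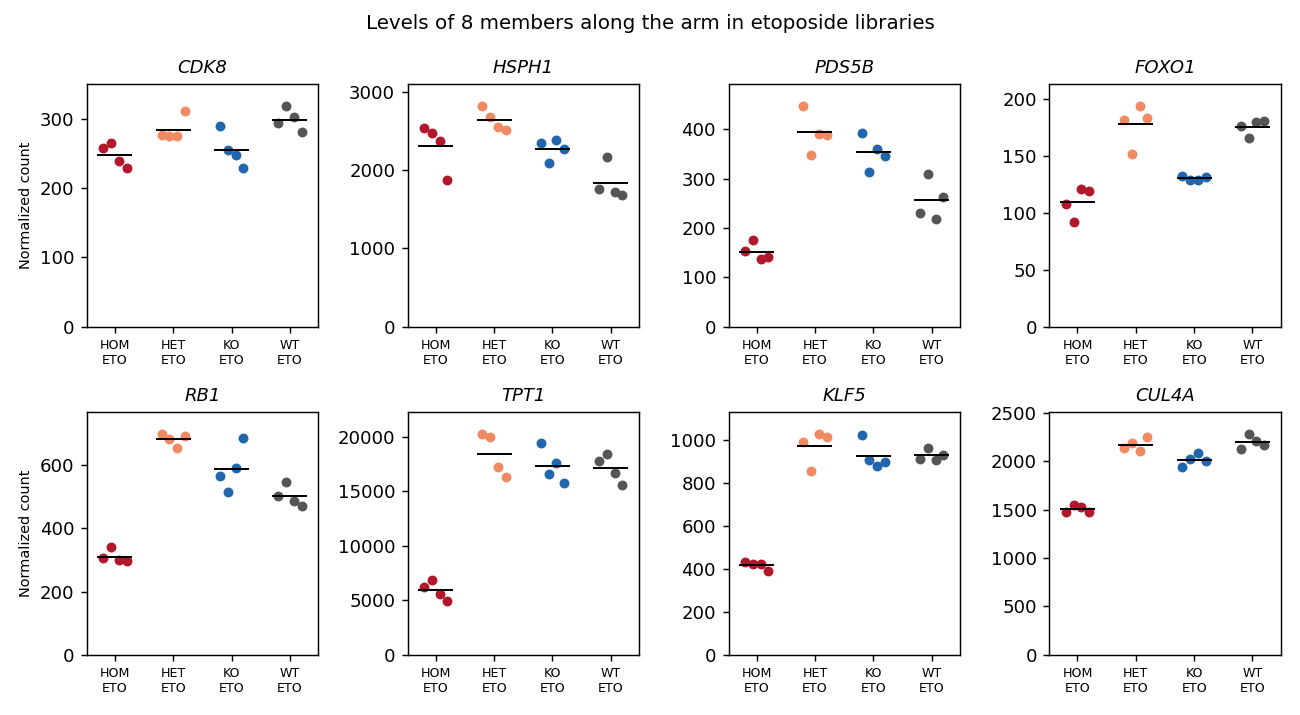
Normalized counts (y axis, linear) with etoposide of CDK8, HSPH1, PDS5B, FOXO1, RB1, TPT1, KLF5 and CUL4A (1 panel each) in HOM, HET, KO and WT; points are libraries and bars group means. CDK8 and HSPH1 in HOM overlap other genotypes, and the 6 others are lower in all 4 HOM libraries.

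Transcription and chromatin regulators made up 13 of the members, with a median of -0.92 for HOM against KO with etoposide. RB1 (chr13:48303726-48599436, plus strand), whose protein holds E2F factors in check, had 307, 340.0, 299.9 and 296 normalized counts in HOM with etoposide, and 699, 685, 656 and 692 in HET. KO had 565, 515, 592 and 685, against 502, 546, 488 and 471 in WT. All HOM values were below all others, and the differences were -1.14 against HET, -0.92 against KO and -0.69 against WT. FOXO1 (chr13:40469953-40666597, minus strand), a forkhead transcription factor that insulin signalling restrains, had 108, 91.7, 120.4 and 119 normalized counts in HOM with etoposide, and 181, 152, 194 and 184 in HET. In KO they were 132, 129, 129 and 131, against 176, 166, 179 and 180.2 in WT. HOM was below all others, KO was below HET and WT, and the differences were -0.69 against HET, -0.25 against KO and -0.68 against WT.

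KLF5 (chr13:73054976-73077542, plus strand), a Kruppel-like transcription factor, had 433, 425, 423 and 390.3 normalized counts in HOM with etoposide, and 991, 855, 1029.8 and 1015 in HET. The KO libraries had 1023, 909, 882 and 898, against 913, 965, 909 and 932 in WT. HOM stood well below the other 3 genotypes, which overlapped, with differences of -1.21 against HET, -1.15 against KO and -1.15 against WT. HMGB1 (chr13:30456704-30617597, minus strand), an abundant DNA-bending chromatin protein of the proximal block, had 7371, 7501, 6278 and 5089 normalized counts in HOM with etoposide, and 5635, 5419, 4406 and 4703 in HET. Values in KO were 8963, 7229, 8068 and 8395, against 2747, 2992, 2617 and 2609 in WT. HOM overlapped HET and KO and lay above all WT values, so its difference of 1.24 against WT was the highest of any member, beside 0.37 against HET and -0.33 against KO. The 48 HMGB1 pseudogenes in the table summed to 755 normalized counts in HOM with etoposide, 582 in HET, 927 in KO and 364 in WT as group means, so reads shared among near-identical copies could add to the HMGB1 value.

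Signalling genes numbered 8, with a median of -0.81 against KO. SPRY2 (chr13:80335976-80340951, minus strand), a feedback inhibitor of receptor tyrosine kinases, had 149, 140.4, 123 and 157 normalized counts in HOM with etoposide, and 426, 472, 455 and 435 in HET. KO had 254, 231, 256 and 239.6, against 403, 418, 391 and 374 in WT. HOM was lowest and KO second lowest, without overlap, and the differences were -1.65 against HET, -0.79 against KO and -1.48 against WT. IRS2 (chr13:109752698-109786568, minus strand), an insulin receptor substrate, had 2.37, 2.43, 3.83 and 1.70 normalized counts in HOM with etoposide, and 10.2, 2.05, 8.11 and 7.09 in HET. In KO they were 15.7, 2.60, 1.62 and 5.88, against 3.36, 5.02, 4.35 and 3.86 in WT. Most of these values lie at or near the level of 3 counts, and the groups overlap, so no difference was detectable at this depth.

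At the distal end, CUL4A (chr13:113208193-113267108, plus strand), the scaffold of CRL4 ubiquitin ligases, had 1478, 1543, 1528 and 1476 normalized counts in HOM with etoposide, and 2132, 2186, 2108 and 2249.9 in HET. The KO libraries had 1934, 2026, 2085 and 2005, against 2129, 2279.9, 2204 and 2163 in WT. HOM was below all others, with differences of -0.53 against HET, -0.42 against KO and -0.54 against WT. LAMP1 (chr13:113297241-113323672, plus strand), a lysosomal membrane protein, had 6365, 6163, 6561 and 7666 normalized counts in HOM with etoposide, and 10058, 9965, 11146 and 10292 in HET. Values in KO were 8169, 8084, 8002 and 8122, against 10805, 10264, 11428 and 10809 in WT. Every HOM value was below every KO value, and KO was below HET and WT, with differences of -0.64 against HET, -0.28 against KO and -0.70 against WT.

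The medians by role were not far apart, and several groups mixed genes of different blocks. For HOM against KO with etoposide, the 4 RNA processing genes (EXOSC8, WBP4, NUFIP1 and INTS6) had a median of -1.12, and the 5 genes of metabolism and mitochondria, among them PCCA of propionyl-CoA carboxylase and the mitochondrial ribosomal protein MRPS31, had -1.08. The importins KPNA3 and IPO5 had -1.002, and the 7 membrane traffic genes, with COG3 and COG6 of the Golgi COG complex and VPS36 of ESCRT-II, had -0.93. The 4 genes of protein folding, turnover and translation had -0.85, the 4 of cytoskeleton and adhesion -0.80, and the 10 of ubiquitin and related modifiers -0.77. The last group holds 3 proximal genes (USPL1, LNX2 and UBL3) and CUL4A. Proximal genes are also in transcription and chromatin (CDK8, POLR1D and HMGB1), metabolism (SLC7A1), folding (HSPH1) and cytoskeleton (KATNAL1). Membrane traffic holds the distal LAMP1. Differences between these medians therefore cannot be read as differences between roles. Over the 46 tested middle members, the Spearman correlation of the HOM against KO difference was 0.28 with position, -0.24 with level, 0.05 with the GC content and 0.17 with the length of the longest transcript, and Pearson's r was 0.18, -0.26, -0.01 and 0.18. With GC content, the difference against WT had a Spearman correlation of -0.34 and a Pearson's r of -0.28. The difference against HET had -0.04 by either measure. These are descriptions across genes that share the same 8 libraries.

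The difference was present in each HOM library. Relative to the WT mean of the same treatment, the median of the 48 middle members was -1.08 to -0.84 in the 4 HOM etoposide libraries, 0.27 to 0.48 in HET and -0.09 to 0.06 in KO. The median of the 9 proximal members was -0.02 to 0.20 in HOM, 0.20 to 0.56 in HET and 0.13 to 0.31 in KO. With DMSO, the middle median was -0.96 in HOM replicate 1, the library whose mitochondrial share was close to the other groups, and -1.90, -1.35 and -2.34 in replicates 2, 3 and 4. The proximal median was 0.06 in replicate 1 and -1.77, -0.65 and -2.14 in the others, so both blocks were low in those 3 libraries.

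**Figure D4:**
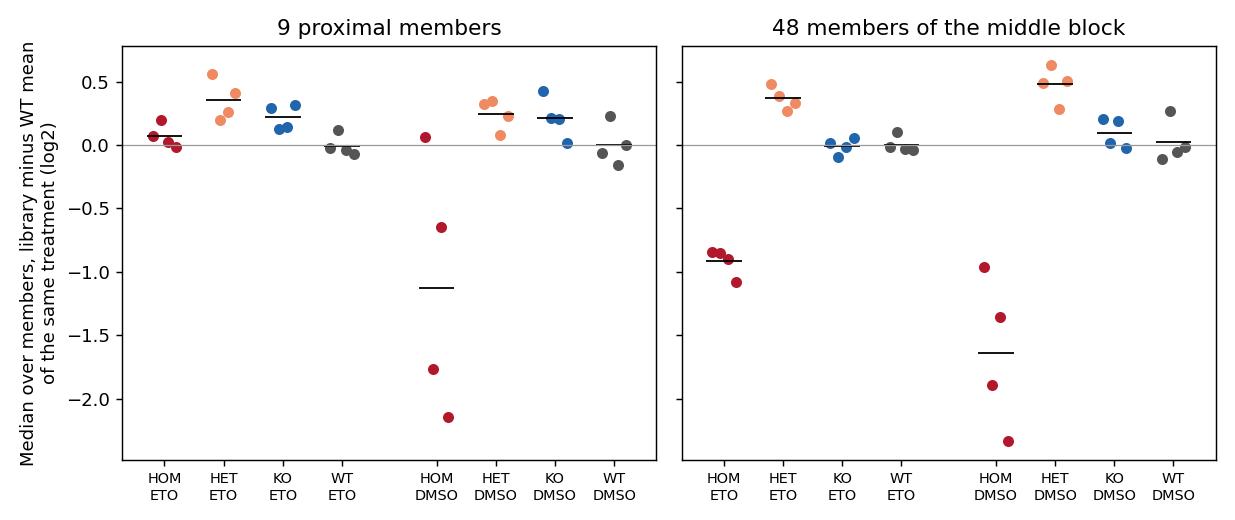
Median over 9 proximal and 48 middle members of log2(normalized count + 1) in each library minus the WT mean of the same treatment (y axis), for HOM, HET, KO and WT with etoposide and with DMSO (x axis); points are libraries and bars group means. The middle members lie at -1.08 to -0.84 in HOM with etoposide, and replicates 2 to 4 of HOM with DMSO lie lower.

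Replicate 1 of HOM with DMSO showed the same course as the etoposide libraries. Against the KO mean with DMSO, its median was -0.18 over the proximal and -0.99 over the middle members. Of the middle members 47 of 48 were below 0, a count with no share of all genes beside it. It was below all 12 DMSO libraries of HET, KO and WT at 40 of 59 members (background 7.51%), and these were 0 of 9 proximal, 38 of 48 middle and 2 of 2 distal members. As a single library it has no spread of its own. For HOM with etoposide against this replicate alone, the member median was 0.17, beside 0.06 over all tested genes. Against all 4 HOM DMSO libraries it was 1.01, beside 0.16 over all tested genes, and it turned to -0.04 once a trend with GC content and length was removed from each library.

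Comparisons without HOM were not used to list the members and were tested with limma across all genes, a gene passing at an adjusted p under 0.05 and at least 1.5-fold. They share libraries with the contrasts on which the members were listed. In WT cells, etoposide against DMSO raised 11 and lowered 9 of the 57 tested members, where 35.0% of all tested genes passed (20.1% higher, 14.9% lower). The members' median was 0.20, beside 0.05 over all genes. The largest rises were LCP1 (L-plastin, an actin bundler) at 1.24 (SE 0.36, limma adjusted p = 0.00498), UFM1 (a ubiquitin-like modifier) at 1.20, KLF5 at 1.19, AKAP11 (an anchor of protein kinase A) at 1.11 and SPRYD7 at 0.96. The largest falls were PDS5B (a cohesin regulator) at -0.94, STK24 (the kinase MST3) at -0.83 (SE 0.10, limma adjusted p = 5.0e-08), HMGB1 at -0.77, KATNAL1 (a microtubule-severing protein) at -0.74 and TSC22D1 at -0.70. With total-count scaling the split was 14 higher and 1 lower, with an all-gene median of 0.28, and the falls of PDS5B, HMGB1, KATNAL1 and TSC22D1 no longer passed. The count was 13 without replicate 3 of WT with DMSO, where AKAP11 was among those that no longer passed. Here and below, shares of all genes come from the test as described, and none is given for an alternative.

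Without p53, etoposide raised 10 and lowered 8 members (background 32.6%, 18.1% higher and 14.5% lower), with a median of 0.15, beside 0.05 over all genes. LCP1 rose by 1.51, KLF5 by 1.25, RCBTB2 by 1.11, HSPH1 by 0.88 and UFM1 by 0.87 on the log2 scale. STARD13 changed by -1.53 (SE 0.14, limma adjusted p = 3.3e-10), and PCCA by -1.33, NBEA by -1.29, LMO7 (a junction protein) by -1.03 and the mitochondrial ATPase VWA8 by -0.96. In HET, 7 members rose and 5 fell (background 30.2%, 17.5% higher and 12.7% lower), with a median of 0.14, beside 0.01. KLF5 rose by 1.44, LCP1 by 1.37, the hydrolase UCHL3 by 0.83, SPRYD7 by 0.77 and SPRY2 by 0.74. PDS5B changed by -0.997, PCCA by -0.82, HMGB1 by -0.76, LMO7 by -0.63 and STK24 by -0.62. With total-count scaling the splits were 19 higher and 4 lower in KO and 8 and 0 in HET, with all-gene medians of 0.35 and 0.20. Quantile normalization gave 8 higher and 11 lower in KO. KLF5 and LCP1 were thus among the rising members of all 3 genotypes, and KLF5 had 386, 338, 299 and 416 normalized counts in HET with DMSO, 386, 364, 451 and 359 in KO with DMSO and 489, 495, 253 and 449 in WT with DMSO, against which its etoposide values above lie higher in every library.

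The response to etoposide differed between KO and WT at 4 members, HMGB1, EXOSC8, KATNAL1 and STARD13, by the test of the difference itself (background 15.2%, 7.11% higher and 8.13% lower). EXOSC8 is a subunit of the RNA exosome. Promoter windows from RefSeq on GRCh38.p14 (250 bases before to 50 after the first listed start, on the gene's own strand) are shown for these 4, because they are the members whose response differed between KO and WT by this test. Capitals mark CCAAT (the CCAAT box), TTTCCCGC or TTTGGCGC (E2F sites), GGGCGG (the GC box) and TTTGAA (the core of the cell cycle homology region), read on either strand.
HMGB1: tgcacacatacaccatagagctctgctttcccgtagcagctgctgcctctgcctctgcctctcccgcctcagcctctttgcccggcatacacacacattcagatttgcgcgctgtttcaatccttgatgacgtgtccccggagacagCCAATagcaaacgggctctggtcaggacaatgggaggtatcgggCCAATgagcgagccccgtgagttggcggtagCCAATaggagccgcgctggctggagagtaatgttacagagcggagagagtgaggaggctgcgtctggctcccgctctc
EXOSC8: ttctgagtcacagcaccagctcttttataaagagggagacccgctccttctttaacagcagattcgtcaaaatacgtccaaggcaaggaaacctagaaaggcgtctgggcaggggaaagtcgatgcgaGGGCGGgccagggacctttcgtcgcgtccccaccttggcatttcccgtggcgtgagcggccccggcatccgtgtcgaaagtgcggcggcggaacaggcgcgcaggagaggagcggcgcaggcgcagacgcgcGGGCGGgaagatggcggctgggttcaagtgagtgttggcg
KATNAL1: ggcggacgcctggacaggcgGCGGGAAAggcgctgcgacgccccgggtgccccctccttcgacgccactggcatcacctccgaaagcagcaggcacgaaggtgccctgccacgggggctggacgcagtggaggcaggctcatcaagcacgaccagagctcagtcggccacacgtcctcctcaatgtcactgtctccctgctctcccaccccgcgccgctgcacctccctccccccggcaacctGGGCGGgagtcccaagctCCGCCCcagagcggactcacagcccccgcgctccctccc
STARD13: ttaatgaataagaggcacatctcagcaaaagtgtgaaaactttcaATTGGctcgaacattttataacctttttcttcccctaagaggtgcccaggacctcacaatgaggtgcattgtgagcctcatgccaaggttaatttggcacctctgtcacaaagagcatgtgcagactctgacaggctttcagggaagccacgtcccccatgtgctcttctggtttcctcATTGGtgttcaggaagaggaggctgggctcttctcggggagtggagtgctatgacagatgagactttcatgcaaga
The windows lie at chr13:30465887-30466186 (HMGB1, minus strand), chr13:37000536-37000835 (EXOSC8, plus strand), chr13:30307502-30307801 (KATNAL1, minus strand) and chr13:33676745-33677044 (STARD13, minus strand). RefSeq lists 3 starts for HMGB1, 1 for EXOSC8, 2 for KATNAL1 and 4 for STARD13. The KATNAL1 and STARD13 windows lie outside the GENCODE spans of these genes, and those of HMGB1 and EXOSC8 lie inside, downstream of the GENCODE 5′ end. HMGB1 held 3 CCAAT boxes, STARD13 held 2, EXOSC8 held 2 GC boxes, and KATNAL1 held 1 E2F site and 2 GC boxes. RefSeq windows were found for 55 of the 59 members (not for USPL1, ITM2B, PHF11 and TRIM13), 85 windows in all. A CCAAT box was in 36.5% of the member windows and 34.6% of all 35116 windows, an E2F site in 4.71% and 2.27%, a GC box in 60.0% and 45.0%, the TTTGAA motif in 14.1% and 15.2%, and the p53 half-site consensus in 4.71% and 6.63%. A match describes the letters and is not a measured binding site.

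The 4 genes moved as follows. HMGB1, whose etoposide values are given above, had 6846, 5837, 6539 and 4896 in KO with DMSO, against 4093, 5478, 4497 and 4731 in WT with DMSO. All KO etoposide values were above those with DMSO, all WT etoposide values were below, and the responses differed by 1.22 (SE 0.30, limma adjusted p = 0.00425). EXOSC8 (chr13:36998816-37009613, plus strand) had 728, 553, 619 and 588 normalized counts in KO with etoposide, against 198, 215, 178 and 199 in WT with etoposide. It had 456, 439, 420.0 and 409 in KO with DMSO, against 275, 334, 318 and 334 in WT with DMSO. Here too KO was above its DMSO values in every library and WT below, and the responses differed by 1.19 (SE 0.19, limma adjusted p = 3.9e-05). In HOM with etoposide EXOSC8 had 273, 282, 258 and 207, a difference of -1.29 against KO and of 0.36 against WT.

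KATNAL1 (chr13:30202630-30307484, minus strand) had 352, 319, 415 and 400.2 normalized counts in KO with etoposide, against 202, 215, 192 and 184 in WT with etoposide. It had 395, 405, 383 and 321 in KO with DMSO, against 297, 368, 338 and 326 in WT with DMSO. The KO libraries overlapped between treatments, and the WT libraries with etoposide were all below those with DMSO, a difference in response of 0.72 (SE 0.18, limma adjusted p = 0.00459), which did not pass with total-count scaling (0.80). STARD13 had 379.6, 376, 425 and 437 in KO with DMSO, against 357, 353, 306 and 292 in WT with DMSO. Its etoposide values were lower than these in every KO library and overlapped them in WT, and the responses differed by -1.72 (SE 0.19, limma adjusted p = 1.1e-07). Between HET and WT the response differed at 0 of 57 members by limma (background 4.75%, 2.97% higher and 1.78% lower). At an unadjusted p under 0.05 there were 5, a count with no share of all genes beside it.

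**Figure D5:**
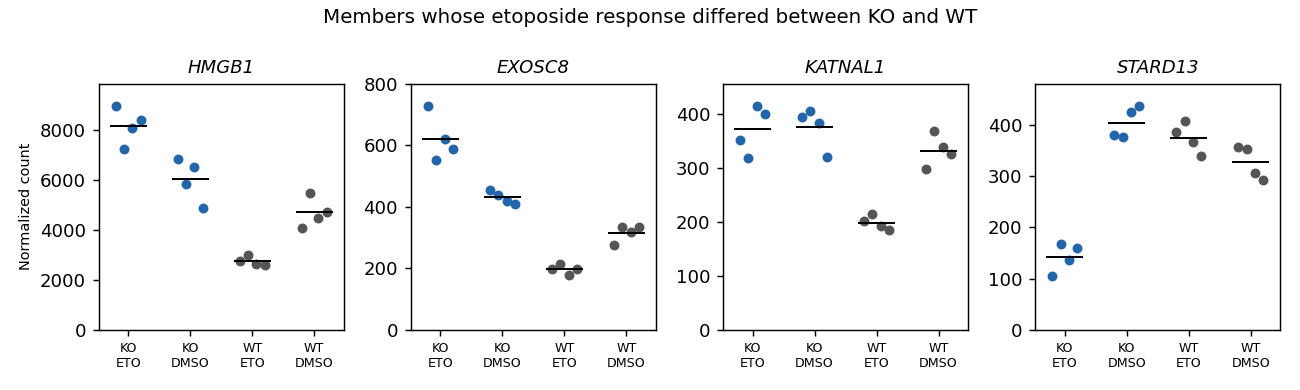
Normalized counts (y axis, linear) of HMGB1, EXOSC8, KATNAL1 and STARD13 (1 panel each) in KO with etoposide, KO with DMSO, WT with etoposide and WT with DMSO; points are libraries and bars group means. HMGB1, EXOSC8 and KATNAL1 are lower with etoposide in WT and not in KO, and STARD13 is lower with etoposide in KO.

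With etoposide, KO against WT was higher at 4 and lower at 4 members (background 26.7%, 11.7% higher and 15.0% lower), with a median of -0.01. EXOSC8 was higher by 1.65 (SE 0.14, limma adjusted p = 7.0e-11), HMGB1 by 1.57, KATNAL1 by 0.90 and RCBTB2 by 0.69. STARD13 was at -1.42 (SE 0.14, limma adjusted p = 1.2e-09), PCCA at -0.99, NBEA at -0.85 and SPRY2 at -0.69. RCBTB2 and NBEA did not pass when some single libraries were left out. With DMSO, 1 member passed, SPRY2 at -0.65 (SE 0.14, limma adjusted p = 0.00158), where 8.35% of all tested genes passed (2.75% higher, 5.59% lower), and it did not pass with total-count scaling or on the deposited values.

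HET cells had higher levels of several members. With etoposide, HET against WT was higher at 10 and lower at 0 members (background 23.3%, 10.1% higher and 13.2% lower), with a median of 0.35, beside 0.00 over all genes. LMO7 was higher by 1.66 (SE 0.21, limma adjusted p = 2.6e-07), GTF2F2 by 1.20, HMGB1 by 0.87, EXOSC8 by 0.79 and RCBTB2 by 0.74. With DMSO, 19 were higher and 1 lower (background 32.5%, 16.1% higher and 16.4% lower), with a median of 0.45. PIBF1, a centrosomal protein, was at 1.66 (SE 0.68, limma adjusted p = 0.0461), LMO7 at 1.63, UFM1 at 1.32, UBL3 at 1.27 and COG6 at 1.16, and STARD13 was lower at -0.61. PIBF1 did not pass under 10 of 17 alternatives, among them quantile normalization (1.52) and leaving out replicate 3 of WT with DMSO (0.82), and STARD13 did not pass under 5, among them total-count scaling (-0.33). Against KO, HET was higher at 11 and lower at 2 members with etoposide (background 30.5%, 15.7% higher and 14.9% lower) and at 14 and 1 with DMSO (background 32.8%, 15.9% higher and 16.9% lower). With etoposide LMO7 was at 1.56, NBEA at 1.51, GTF2F2 at 1.39, PCCA at 1.23 and STARD13 at 0.96, and EXOSC8 at -0.86 and HMGB1 at -0.70, the last not passing with total-count scaling (-0.53). With DMSO LMO7 was at 1.17, GTF2F2 at 1.12, UFM1 at 1.11, UBL3 at 1.01, COG6 at 0.79 and STARD13 at -0.92. RCBTB2 in HET against WT with etoposide and UBL3 and COG6 in HET against KO with DMSO did not pass when some single libraries were left out. The count for HET against WT with etoposide was 6 without replicate 1 of WT with etoposide, and that for HET against KO with DMSO was 7 without replicate 2 of HET and 8 without replicate 2 of KO.

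Medians of other chromosomes in HET also differed from WT. For HET against WT with etoposide, chromosome 13 had a median of 0.32 and a median transcript GC content of 42.8%. Chromosomes 3, 6 and 18 had medians of 0.32, 0.30 and 0.28 with GC contents of 46.2%, 46.1% and 43.3%, and chromosomes 16, 19 and 22 had -0.28, -0.28 and -0.30 with 55.4%, 58.7% and 56.7%. Chromosomes 4, 5 and 8, with GC contents of 42.6%, 45.0% and 45.6%, had medians of 0.16, -0.02 and -0.07. Any part of GC content in these medians was not tested. With a trend in GC content and transcript length removed from each library, an alternative chosen after these values were seen, 2 members (LMO7 and GTF2F2) passed for HET against WT with etoposide, 5 with DMSO, 8 for HET against KO with etoposide and 4 with DMSO, and the middle median of HET against WT with etoposide was -0.01. The same step left the member median of HOM against KO with etoposide at -0.93. The share of all genes passing after this step is not given, so the lower counts cannot be read as particular to the members.

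Many members encode subunits of complexes whose other subunits lie on other chromosomes. As partners, 98 genes of these complexes, or of the same families or pathways, were measured. Their lists were Mediator, exosome, COG, cohesin, CUL4 ligase, ESCRT-II, Integrator, pocket proteins and E2F, the UFM1 pathway, RNA polymerase I, TFIIF and propionyl-CoA carboxylase. Partners did not enter the rule, so HOM was tested on them. Against HET with etoposide, 8 were higher and 9 lower in HOM (background 30.8%, 16.3% higher and 14.5% lower), against KO 0 were higher and 1 lower (background 12.1%, 7.47% higher and 4.67% lower), and against WT 12 were higher and 5 lower (background 28.6%, 14.0% higher and 14.7% lower). Their medians were -0.01, -0.06 and 0.03. Against KO, 14 partners had an unadjusted p under 0.05, a count with no share of all genes beside it. The 1 partner that passed against KO was COG1, a COG subunit, at -0.61 (SE 0.17, limma adjusted p = 0.0103). It did not pass with total-count scaling (-0.46), nor without replicate 1 or 2 of HOM or replicate 3 of KO with etoposide (0 partners passing in each case), and 2 partners passed without replicate 4 of HOM or of KO. Against WT the largest rises were the E2F family factors E2F1 at 1.52 (SE 0.17, limma adjusted p = 2.5e-08) and E2F8 at 1.36, and the cohesin subunit SMC3 at 1.28. COG1 was at -0.99, the Mediator subunit MED15 at -0.94 and the cohesin subunit STAG1 at -0.76. STAG1 did not pass against WT under 9 of 17 alternatives, among them total-count scaling, no filter and leaving out any 1 of 7 of the 8 libraries. Against HET, E2F2 was at 1.22, E2F8 at 0.95 and E2F1 at 0.90, and COG5 at -1.70, STAG1 at -1.70 and MED20 at -1.02. The split against WT was 18 higher and 2 lower with total-count scaling.

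The list of 11 pocket protein and E2F genes was drawn up by family around RB1, and not all of them act with RB1 itself. It had 3 higher and 0 lower in HOM against HET with etoposide, 0 and 0 against KO, and 5 and 0 against WT, with medians of -0.09, -0.05 and 0.34. Of the 29 Mediator partners, listed for CDK8 and MED4, 3 were higher and 3 lower against HET, 0 and 0 against KO, and 2 and 2 against WT. Exosome partners numbered 9, with 1 higher and 1 lower against HET, 0 and 0 against KO, and 2 and 0 against WT. Against KO, the medians of these 3 lists were -0.05, -0.05 and -0.02. The middle members, which were listed by their levels in HOM, had -0.97, so the gap to the partners follows in part from the choice of members.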

How the data were processed

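Poly-A RNA of 32 U2OS libraries was sequenced, 4 for each of 8 groups taken from the labels. Per the submitters' processing notes, reads were quantified with kallisto on GRCh38 (hg38) and normalized with DESeq2, with versions not given in the sources used here. A matrix of variance-stabilized values on a log2 scale, with a floor of 4.43, was deposited by the authors. They also deposited tables of 6 contrasts with a mean normalized signal, log2 fold changes, a Wald statistic (a score) and raw and adjusted p-values. Inverting the variance stabilization gave normalized counts. Their means equalled the deposited mean signal (largest relative difference 4.5e-14), and dividing by each library's scale gave whole numbers, to a tolerance of 0.01, for 100% of values. Positions came from GENCODE on GRCh38, with 35403 symbols matched and 184 not. Strand was not stated, so overlapping genes on opposite strands cannot be told apart. 23 members overlap such a gene, and at 10 of them, among which are RB1 with LPAR6 and RCBTB2, EXOSC8, ELF1 with WBP4 and CUL4A, a partner reaches 10% of the member's level or more.

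The test was limma 3.58.1 in R 4.3.3 with a trend, on log2(normalized count + 1), over all 32 libraries with 1 mean per group, on the 16824 genes that reached 10 normalized counts in 4 or more libraries. P-values were two-sided and Benjamini-Hochberg adjusted over all genes of a contrast, and calls needed an adjusted p below 0.05 and a 1.5-fold change. A fold change on this scale understates that of low genes. Standard errors come from 1 spread per gene over all 8 groups, the variable HOM DMSO group included. On simulated data for KO against WT with etoposide (16254 genes), 56% of 50 genes changed 1.5-fold and 100% of 50 changed 2-fold were called, as were 6 of 16054 unchanged genes. The simulation gave every gene the same dispersion and the HOM DMSO group no extra spread. Only genes with a mean of at least 50 normalized counts were changed in it. These shares therefore need not hold for low or more variable genes in the real data. A count of 3 in a library, the floor used here, covers counting error only and equals 2.30 to 6.37 normalized counts. No 2 replicates were duplicates (chi-square over degrees of freedom at least 1.89).

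Members and lists were chosen with earlier results of these data known. Named with values per library were the members with the 4 largest and 4 smallest differences between HOM and the mean of the other genotypes with etoposide, 10 members chosen by role, and members whose response differed. Up to 5 rising and 5 falling members per tested contrast, and 3 partners each way, were named by size. Alternatives were another pseudocount, no filter, the deposited values, total-count scaling, quantile normalization, a replicate block, the compared groups alone, leaving out HOM DMSO replicates 2 to 4 or single libraries, and, chosen after seeing the data, removal of a GC content and length trend. Python 3.11.15 with pandas 2.3.3 and numpy 2.4.6 made the summaries.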

Additional observations from a re-analysis of the deposited data

Results flagged for a closer look

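Among 168 groups of 4 libraries screened over the 19 members named by library and both block medians, 5 had 1 library far from the 3 others, where chance gives about 1 in 20 groups. CDK8 in HET with etoposide had 311 normalized counts in replicate 4, against 275 to 277 in the 3 others. HSPH1 in WT with etoposide had 2169.5 in replicate 2, against 1688 to 1764. NBEA in KO with DMSO had 54.5 in replicate 1, against 46.6 to 47.1. TPT1 in KO with DMSO had 14496 in replicate 4, against 18294 to 18530. GTF2F2 in WT with DMSO had 222 in replicate 2, against 168.7 to 170.9.

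The etoposide response differed between KO and WT at 4 members by limma's test of the difference. The differences on the log2 scale were 1.22 for HMGB1, 1.19 for EXOSC8, 0.72 for KATNAL1 and -1.72 for STARD13.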

How the results depend on the processing

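Directions held throughout for the member medians of HOM against HET, KO and WT in both treatments, and for the other chromosome 13 genes, under the alternatives run. The median of HOM against HET with etoposide (-1.20) was -1.09 on the deposited values, -1.31 with quantile normalization and -1.07 after removing the GC content and length trend (here the GC trend). Against KO (-0.91) it was -0.71 on the deposited values, -0.77 with total-count scaling and -1.01 with quantile normalization, and against WT (-0.78) -0.63 on the deposited values, -0.56 with total-count scaling and -1.04 with the GC trend removed. With DMSO, HOM against HET (-2.01) was -2.83 with total-count scaling and -0.96 with the GC trend removed, HOM against KO (-1.66) -0.98 with the GC trend removed and -0.95 without HOM DMSO replicates 2 to 4, and HOM against WT (-1.56) -0.88 without them. HOM with etoposide against DMSO (1.01) was 0.84 with a pseudocount of 5, 0.70 on the deposited values, 1.87 with total-count scaling, 0.53 with quantile normalization, 0.17 without those 3 libraries and -0.042, reversed, with the GC trend removed, and 0.68 to 1.30 with single libraries left out. The other chromosome 13 genes in HOM against KO with etoposide (-0.58) had -0.40 on the deposited values, -0.45 with total-count scaling and -0.71 with quantile normalization.

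Of the counts of members, HET against WT with etoposide (10) became 16 without HOM DMSO replicates 2 to 4, 17 on the compared groups alone, 2 with the GC trend removed and 6 to 9 with single libraries left out. With the GC trend removed, HET against KO became 8 (from 13) with etoposide and 4 (from 15) with DMSO, and HET against WT with DMSO became 5 (from 20). HET against KO with DMSO was 7 to 18 with single libraries left out, and etoposide in WT (20) was 13 to 23. KO against WT with DMSO (1) was 0 on the deposited values and with total-count scaling. The response difference of KO and WT (4) was 7 without HOM DMSO replicates 2 to 4 and 7 with the GC trend removed, and that of HET and WT (0) was 2 with quantile normalization and 1 each without those libraries, with the GC trend removed and on the compared groups alone. Partners in HOM against KO (1) were 0 with total-count scaling, 2 with quantile normalization, 3 on the compared groups alone and 0 to 2 with single libraries left out. Reversed with the GC trend removed were MED4 (-0.27) and PDS5B (-0.074) in HET against WT with DMSO, and the middle median of HET against WT with etoposide (0.36), which became -0.0091. The causes were not tested. Counts under an alternative have no share of all genes beside them, so their changes cannot be read as particular to the members. Of the other values of single members across alternatives, 1818 kept direction and call and 269 lost the call.

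Replicate numbers did not pair the libraries: same-numbered libraries of different groups had a median correlation of deviations of -0.0009 (-0.20 to 0.36, 112 pairs), and 7 of 32 libraries correlated best with their own number. With the replicate number as a block, the counts of members were 21, 18 and 12 for etoposide in WT, KO and HET and 8, 10 and 13 for KO against WT, HET against WT and HET against KO with etoposide, and no count moved by 1.5 times. Genes with few counts, such as IRS2, LPAR6 and, in HOM, NBEA, are limited by depth.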

Other observations

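In the authors' deposited table of HOM against KO with etoposide, the median log2 fold change was -0.18 over the proximal members, -0.99 over 46 middle members and -0.35 over the 2 distal members. In the authors' deposited table of HOM against WT with etoposide, the medians were 0.08, -0.93 and -0.62.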
